A study of Mus musculus with 10 samples.

Results

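Cxcl12 and Kitl encode the chemokine CXCL12 and stem cell factor, the best known secreted and membrane-bound factors with which the bone marrow niche holds its haematopoietic stem cells. They were chosen by name as 2 of the 26504 genes with a UMI (a unique molecular identifier, which marks 1 captured RNA molecule) in sorted endothelial cells of mouse long bone. Their UMIs were read in all 10 libraries, in cells with 500 to 6000 genes and under 25% of UMIs from mitochondrial genes, and compared between endothelial types, stromal cells, ages and treatments. All mice were C57BL/6 and carried the Cdh5-mTnG reporter, in which the Cdh5 promoter drives the label of endothelial cells. GFP and tomato double-positive cells of femur and tibia were sorted after lineage depletion. Juvenile mice of both sexes were 3 weeks old, female adult mice 12 weeks, and female aged mice 75 weeks. The PTH and alendronate groups were 12-week-old females given parathyroid hormone, a bone anabolic peptide, or the bisphosphonate alendronate, an inhibitor of bone resorption; the adult group carries no treatment label. Each group was 1 pool of animals measured as 2 libraries, so p-values measure the spread between libraries and not between mice. The design names more than 1 version of the 10x kit without assigning them, and an effect of the kit and one of age cannot be told apart here.

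CXCL12 binds the receptor CXCR4 on haematopoietic stem and progenitor cells and retains them in the marrow, and the receptor ACKR3 takes it up and clears it. Stem cell factor binds the receptor tyrosine kinase KIT, which these stem cells need for their maintenance. Perivascular stromal cells marked by the leptin receptor are known as the main source of both factors, with a smaller contribution of endothelial cells, where arterial and sinusoidal vessels form distinct niches.

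In the GENCODE annotation of GRCm38 (mm10), Cxcl12 (ENSMUSG00000061353.11) lies on the plus strand at chr6:117168535-117181367 with 4 annotated transcripts, and Kitl (ENSMUSG00000019966.18) on the plus strand at chr10:100015630-100100416 with 6. No other gene of that annotation overlapped either of them. Whether the counts were made with the same annotation is not given in the sources used here. The bases before the RefSeq transcription start (GRCm38.p6) are shown because the promoters of these genes differ in their core elements. For Cxcl12 the 250 bases at chr6:117168285-117168534 are given, with GC boxes (GGGCGG on either strand) in capitals. For Kitl the 30 bases at chr10:100015784-100015813 around a TATA box (TATAAA, in capitals) 25 bases before the RefSeq start are given, which lie in the first exon of a longer GENCODE transcript.
Cxcl12: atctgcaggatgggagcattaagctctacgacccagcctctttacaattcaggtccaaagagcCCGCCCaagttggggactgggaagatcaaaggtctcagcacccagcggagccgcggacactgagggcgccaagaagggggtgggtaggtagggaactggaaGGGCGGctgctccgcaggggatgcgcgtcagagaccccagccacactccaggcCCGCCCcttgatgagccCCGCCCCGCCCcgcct
Kitl: gggagggagctgTATAAAaagcgctggcgg
The 250 bases before the start held 5 GC boxes in Cxcl12 and 3 in Kitl, where 32.7% of 32851 RefSeq windows of that length held at least 1. A TATA box on either strand was found before Kitl and not before Cxcl12, and 12.4% of windows held one. The letters ACGTG of the hypoxia response element, present in 16.6% of windows, were in neither window. These matches describe letters and no binding was measured.

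Cells were clustered without Cxcl12, Kitl or any listed gene among the features, and each cluster was named from its markers. Sinusoidal bone marrow endothelial cells (bmEC-like, 19341 cells) carried Stab2 at 1748 counts per 1000000 UMIs (CPM), metaphyseal cells (mpEC-like, 10126 cells) Aplnr at 1281 CPM and Ramp3 at 449 CPM, and arterial cells (aEC-like, 5234 cells) Gja4 at 1280 CPM. Type R cells (rEC-like, 3051 cells) carried Timp4 at 1115 CPM and Aqp7 at 525 CPM. Proliferating cells (pEC-like) numbered 669 and stromal cells, with Col1a1 at 2469 CPM and Lepr at 235 CPM, 466. A further 5458 cells matched no type and stayed unnamed, and 1372 were haematopoietic-like. The stromal-like cells had also entered through the endothelial gate. Their larger cluster, led by Ibsp and Adipoq and called Adipoq-led below, held Cdh5 at 761 CPM and Kdr at 834 CPM. The stromal-like class as a whole held the sinusoidal marker Stab2 at 683 CPM.

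Total depth ran from 10653583 to 28419323 UMIs per library, both in the PTH group, and 46283 of 47466 cells were kept with a median of 3075 to 5149 UMIs. Each library held 3291 to 16409 UMIs of Cxcl12 and 687 to 5258 of Kitl. Pairs of libraries shared 1 to 78 cell barcodes. The aged libraries stood apart: 2017 gene names had UMIs in them alone, and those names were left out of the sums. Whether the aged tables were counted with the same annotation is not given in the sources used here, and an effect of the counting on the aged levels of Cxcl12 and Kitl cannot be told apart from one of age. Free RNA differed too, as the neutrophil gene Elane in the endothelial classes was at 0 to 1.28 CPM in juvenile, 0.922 to 2.76 CPM in aged, 2.29 to 6.39 CPM in PTH, 10.1 to 18.8 CPM in adult and 15.97 to 31.2 CPM in alendronate cells.

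Cxcl12 was highest in stromal-like cells and, among endothelial cells, in the arterial and type R classes, whereas sinusoidal cells carried almost none. Over the 10 libraries, stromal-like cells ranged from 233 to 10361 CPM with a median of 5485 CPM. The low end was aged, at 233 and 473 CPM, and the other 8 libraries were all above every endothelial class. Arterial cells lay at 1646 to 2748 CPM with a median of 1929.9 CPM, and type R cells at 1259 to 3413 CPM with a median of 1665 CPM. Metaphyseal cells ran from 41.6 to 382 CPM with a median of 149 CPM, with the lowest values in juvenile and the highest in aged libraries. Their class joined clusters of unlike depth, with a median of 4676 and 1604 UMIs per cell. The deeper held Cxcl12 at 94.0 CPM over all its cells and the shallower at 507 CPM. Gm10800, Gm10801 and Igha were among the leading genes of the shallower one, beside the metaphyseal markers Piezo2 and Lamb1. Proliferating cells spanned 17.4 to 167 CPM with a median of 91.1 CPM in the 8 libraries with enough of them. Sinusoidal cells spanned 21.4 to 86.9 CPM with a median of 64.8 CPM. The order of the medians was therefore stromal, arterial, type R, metaphyseal, proliferating and sinusoidal. The ranges of arterial and type R cells overlapped, as did those of the last 3 classes, but no type R library came near the metaphyseal range.

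Kitl followed another order, with type R first. Type R cells ranged from 300.2 to 1113 CPM with a median of 383 CPM and arterial cells from 269 to 778 CPM with a median of 293 CPM, overlapping along most of their length. Stromal-like cells ran from 26.3 to 320 CPM with a median of 199 CPM, again lowest in the aged libraries. Proliferating and metaphyseal cells were close to each other, at 39.3 to 104 CPM with a median of 57.6 CPM and 37.3 to 187 CPM with a median of 55.7 CPM. Sinusoidal cells, at 4.25 to 13.9 CPM with a median of 9.01 CPM, lay below every library of the other 5 classes.

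**Figure D1:**
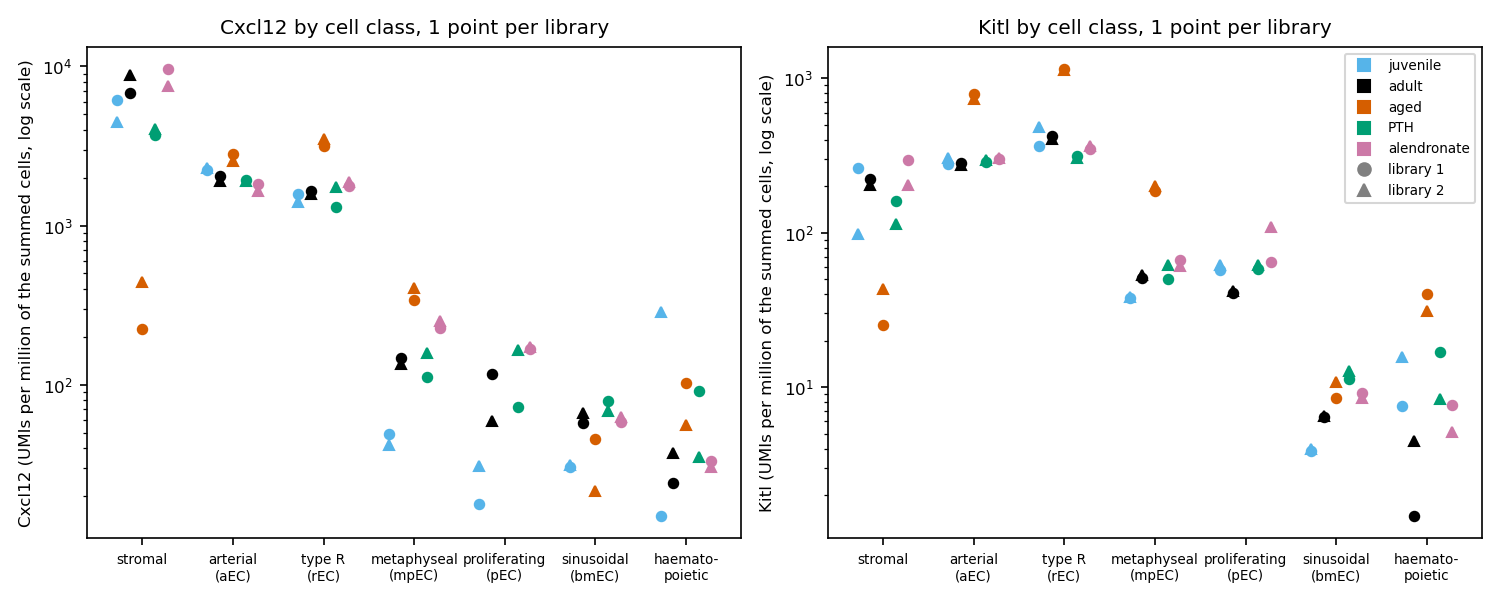
Cxcl12 and Kitl in each class and library, as CPM of all UMIs of the class in that library (log axis), 1 point per library coloured by group. Stromal-like, arterial and type R cells sit at the top for Cxcl12, type R and arterial cells for Kitl, and sinusoidal cells overlap the haematopoietic-like cells for both genes.

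Haematopoietic-like cells, which should express neither gene, gave a measure of free RNA. On the plain CPM scale of the plot of levels by class they carried Cxcl12 at 15.0 to 286 CPM with a median of 36.4, and Kitl at 1.46 to 40.2 CPM with a median of 7.98. Sinusoidal cells, at 21.5 to 79.4 CPM (median 57.8) for Cxcl12 and 3.84 to 12.6 CPM (median 8.49) for Kitl, lay inside those ranges. The top of the range for Cxcl12 was juvenile library 2, where 15 cells of 1 haematopoietic-like cluster held 53 Cxcl12 UMIs. In the 32 haematopoietic-like cells of that library the stromal markers summed to 125 CPM and Adipoq was at 46.7 CPM, while their other cluster held Cxcl12 at 13.8 CPM, so its place in the counts that follow rests on those few cells. Within a library, sinusoidal cells were above haematopoietic-like cells for Cxcl12 in 6 of 10 libraries, the adult, alendronate, juvenile 1 and PTH 2 libraries, by ratios of 1.74 to 2.37, and below them in the other 4. For Kitl they were above in 5 and below in 5. Against erythroid cells, with a median of 26.2 CPM for Cxcl12 and 4.23 CPM for Kitl, sinusoidal cells were above in 9 of 10 libraries for Cxcl12 and in 7 of 10 for Kitl. Median depths were 3757 UMIs in sinusoidal, 5228 in haematopoietic-like and 7589 in erythroid cells, and the part of depth in these differences was not tested. How far sinusoidal levels lie above free RNA thus depended on the reference class, and their values are given with that limit. Metaphyseal cells, at 42.1 to 407 CPM for Cxcl12 and 37.7 to 200 CPM for Kitl, were above the haematopoietic-like cells of their own library in 9 of 10 libraries for Cxcl12, all but juvenile 2, and in 10 of 10 for Kitl. Every arterial and type R library was above both ranges. Summed over the 9 stromal markers, arterial cells held 17.9 to 36.5 CPM, type R cells 0 to 44.0 CPM, metaphyseal cells 13.2 to 25.6 CPM and sinusoidal cells 22.2 to 48.7 CPM, against 1539 to 37898 CPM in stromal-like cells. Adipoq, a leading gene of the larger stromal cluster, was at 0 to 3.53 CPM in arterial and at 0 to 8.61 CPM in type R cells.

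Each class was tested against the other endothelial classes in sums per class and library, with the library as a block (edgeR's quasi-likelihood test, Benjamini-Hochberg adjustment over 11125 genes, a call needing an adjusted p under 0.05 and a change over 2-fold). Arterial cells were called higher for both genes, with Cxcl12 at a log2 fold change 3.41, SE 0.25, adjusted p = 1.10e-17 and Kitl at 2.40, SE 0.16, adjusted p = 2.21e-19, where 14.4% of all genes were called in either direction. Type R cells were likewise called higher for both (Cxcl12 3.18, SE 0.26, adjusted p = 1.03e-15; Kitl 2.90, SE 0.17, adjusted p = 5.40e-21, 14.9% of genes called). Sinusoidal cells were called lower for both (Cxcl12 -3.13, SE 0.35, adjusted p = 2.07e-11; Kitl -4.27, SE 0.23, adjusted p = 3.33e-23, 16.3% called). In metaphyseal cells, where 6.33% of genes were called, Cxcl12 was lower (-1.20, SE 0.31, adjusted p = 0.00153) and Kitl passed the p but not the fold (-0.56, SE 0.18, adjusted p = 0.0126). The Cxcl12 call in metaphyseal cells was lost at other clustering resolutions, at -0.59 (adjusted p = 0.129) for resolution 0.3 and -0.14 (adjusted p = 0.765) for 0.8.

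In proliferating cells Cxcl12 was called lower (-2.27, SE 0.42, adjusted p = 1.09e-05, 10.7% of genes called), and Kitl was not (-0.47, SE 0.28, adjusted p = 0.189). Stromal-like cells against all endothelial classes were called higher for Cxcl12 (4.12, SE 0.24, adjusted p = 2.22e-21), where 17.3% of genes were called. Kitl in stromal-like cells stayed under 2-fold (0.93, SE 0.24, adjusted p = 0.00149). It passed 2-fold when either aged library was left out, at 1.12 without aged replicate 1 and 1.10 without aged replicate 2, and reached 1.43, SE 0.16, adjusted p = 7.99e-11 without both.

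Pairs of endothelial classes gave the size of each step in the order. For Cxcl12 the fitted step was larger from type R to metaphyseal cells than from metaphyseal to sinusoidal cells, while for Kitl it was not, and the differences between steps were not tested. Arterial and type R cells did not pass the test for Cxcl12 (arterial minus type R 0.19, SE 0.35, adjusted p = 0.758, approximate 95% interval -0.50 to 0.87) or for Kitl (-0.40, SE 0.21, adjusted p = 0.155, interval -0.81 to 0.013), while 10.8% of genes were called between them. Metaphyseal cells were lower than arterial cells in Cxcl12 (-3.69, SE 0.38, adjusted p = 3.65e-12) and Kitl (-2.36, SE 0.21, adjusted p = 2.12e-14), with 14.5% of genes called. They were also lower than type R cells, by a log2 fold change of -3.50 for Cxcl12 (adjusted p = 2.15e-11) and -2.76 for Kitl (adjusted p = 6.68e-16, 15.3% called). Sinusoidal cells were lower than metaphyseal cells in both genes (Cxcl12 -1.54, SE 0.37, adjusted p = 3.33e-04; Kitl -2.97, SE 0.24, adjusted p = 1.12e-15, 11.3% called).

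Across the 48 sums of endothelial class and library, log2 CPM of Cxcl12 and Kitl correlated at Pearson's r = 0.90, a description over sums that share libraries and classes. Of 6718 genes with a mean of at least 20 CPM, those most like Cxcl12 were Slc26a10 (r = 0.96), Lysmd2 (0.96), Lmo7 (0.95), Rftn1 (0.95) and Bcam (0.95). Those most like Kitl were Pkn3 (r = 0.96), Ceacam1 (0.96), Nxpe4 (0.96), Ptprg (0.95) and Cav1 (0.95), the last encoding the caveolar coat protein caveolin-1.

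**Figure D2:**
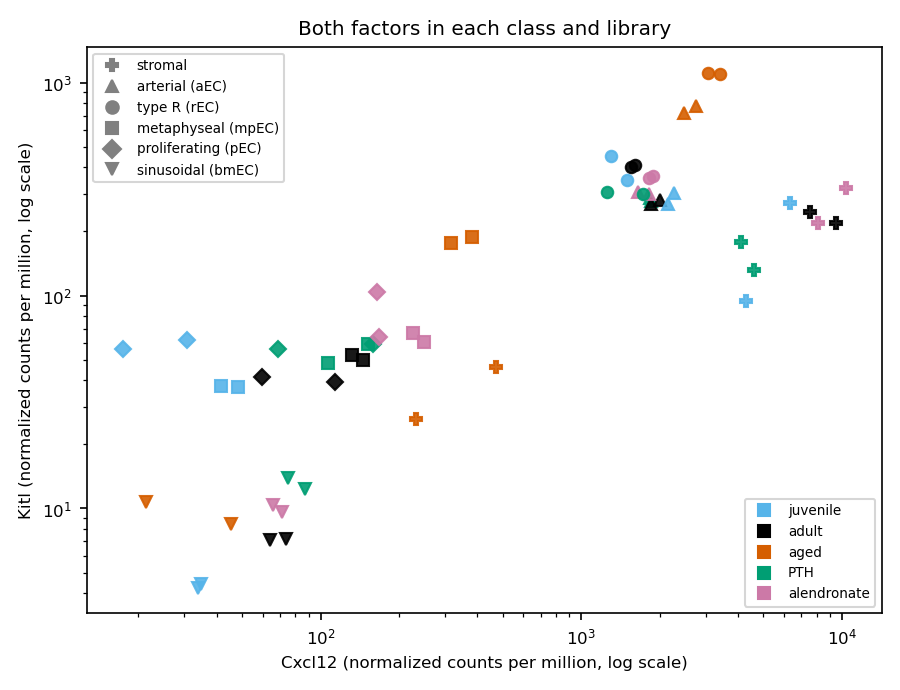
Cxcl12 against Kitl in CPM on log axes, 1 point per class and library, with the shape showing the class and the colour the group. Arterial and type R sums lie together at high levels of both genes, sinusoidal sums at low levels of both, and stromal-like sums stand apart with Cxcl12 high for their Kitl.

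In the plot of Cxcl12 against Kitl, the ratio of Cxcl12 to Kitl UMIs set the stromal-like cells above the arterial, type R and metaphyseal classes, whose own ranges overlapped. Since both genes are counted at their 3′ ends with unknown capture, the ratio is compared between samples only. Its median over libraries was 6.54 in arterial cells (range 3.43 to 8.02), 4.02 in type R cells (2.75 to 5.73) and 2.37 in metaphyseal cells (1.10 to 4.13). In stromal-like cells the median was 31.5 (8.86 to 45.2), above the range of all 3. Sinusoidal cells, which hold few UMIs of either gene, spanned 2.00 to 10.3 with a median of 7.23 and overlapped both arterial and stromal-like cells, and proliferating cells spanned 0.311 to 2.88 with a median of 1.51 in 8 libraries.

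Because arterial cells were numerous and stromal cells rare, the arterial class held the largest share of the Cxcl12 UMIs among named classes. A median of 37.4% of a library's Cxcl12 UMIs (31.7% to 44.6%) came from arterial cells, which made up 12.9% of cells. Stromal-like cells gave 12.6% (0.398% to 29.4%) from 0.965% of cells, type R cells 9.40% (3.95% to 24.0%) from 5.01% of cells, metaphyseal cells 5.91% (4.45% to 8.32%) from 20.8% of cells, and sinusoidal cells 4.20% from 38.9% of cells. For Kitl the median shares were 32.8% in arterial (23.9% to 37.0%), 14.6% in type R (5.97% to 24.4%), 13.8% in metaphyseal (8.56% to 20.2%), 3.37% in sinusoidal (0.615% to 6.20%) and 2.02% in stromal-like cells (0.135% to 7.42%). Type R cells held less of the Kitl than metaphyseal cells in juvenile and PTH libraries and more in the adult, aged and alendronate ones. Unnamed cells held 25.1% of Cxcl12 and 28.4% of Kitl UMIs. The sort sets these shares, since it was made to keep endothelial cells, so they do not describe whole marrow.

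The receptors of both factors were themselves unevenly spread over the endothelial classes. Cxcr4 was called higher in arterial cells (2.17, SE 0.22, adjusted p = 1.13e-12) and lower in sinusoidal cells (-3.58, SE 0.35, adjusted p = 1.92e-13). Ackr3, the scavenging receptor, was higher in arterial (1.55), type R (1.53) and stromal-like cells (2.12) and lower in sinusoidal cells (-3.29). Kit, the receptor for stem cell factor, ran the other way: it was lower in arterial cells (-3.25, SE 0.25, adjusted p = 8.74e-17) and higher in metaphyseal (2.12, SE 0.13, adjusted p = 6.36e-20) and proliferating cells (1.44). Of the 3 receptors, 2 were called higher and 1 lower in arterial cells, and 2 lower in sinusoidal cells, where 14.4% and 16.3% of all genes were called.

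Among the proteases known to cut these factors, 7 of 8 passed the filter on low counts. Dpp4, which clips the amino terminus of CXCL12, was called higher in sinusoidal cells (3.40) and stromal-like cells (3.00), and lower in arterial (-2.51) and type R cells (-1.47). Stromal-like cells also held the sinusoidal marker Stab2 at 683 CPM, and the part of sinusoidal RNA in their Dpp4 level was not tested. The membrane protease gene Mmp14 was higher in metaphyseal (1.60) and sinusoidal cells (1.02) and lower in type R cells (-2.93). In total 2 of 7 were higher and 1 lower in sinusoidal cells, 0 and 3 in type R cells, 1 and 1 in arterial cells and 2 and 0 in metaphyseal cells, beside 16.3%, 14.9%, 14.4% and 6.33% of all genes called. The medians of the list, 0.04, -0.40, 0.02 and 0.08, stood beside medians of all genes of 0.05, -0.07, -0.04 and 0.00.

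Of 19 other niche factors, 14 could be tested, and 11 of them were called higher and 0 lower in stromal-like cells, with a list median of 2.83 against 0.01 over all genes, of which 17.3% were called. They included the chemokine Cxcl14 (9.79), osteopontin (Spp1, 7.44), the TIE2 ligand Angpt1 (6.40) and the lymphoid cytokine Il7 (4.86). In the endothelial classes 2 of the 14 were called higher and 2 lower in arterial, 4 and 1 in sinusoidal, 3 and 1 in metaphyseal, 1 and 1 in type R and 2 and 1 in proliferating cells, beside 14.4%, 16.3%, 6.33%, 14.9% and 10.7% of all genes called. Bmp6 was higher in arterial (3.79) and type R cells (4.06), Ptn (2.57) and Ccl2 (4.13) in metaphyseal cells, and Igf1 (2.13) in sinusoidal cells. Of the 6 transcription factors of the stromal niche cell, 4 were called higher in stromal-like cells: Prrx1 (8.61), Runx2 (7.46), Foxc1 (2.09) and Ebf3 (1.52). Ebf1 and Ebf3 were also called higher in type R cells (1.41 and 1.64), and Ebf1 in arterial cells (2.29). In sinusoidal cells Foxc1 (1.03) and Runx2 (1.93) were called higher and Ebf1 (-3.05) lower.

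The age and treatment groups were each compared with the adult group within a class. The 4 comparisons share the adult libraries, and a call needs an adjusted p under 0.05. A summed level cannot tell fewer expressing cells from less RNA per cell. Over all named endothelial cells pooled, Cxcl12 was at 126 and 123 CPM in the 2 juvenile libraries, 319 and 305 CPM in adult, 1124 and 1082 CPM in aged, 420 and 487 CPM in PTH and 523 and 527 CPM in alendronate libraries. These pooled levels move with the mix of classes, as arterial cells were 3.76% of juvenile, 8.50% of adult and 19.3% of aged cells, so each class is described by itself.

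In aged mice, Kitl rose in the arterial, type R and metaphyseal classes, and Cxcl12 rose in the same classes. In arterial cells Kitl was at 291 and 279.9 CPM in adult and 762 and 705 CPM in aged libraries, so that both aged libraries lay far above both adult ones. It rose with a log2 fold change 1.36, SE 0.071, adjusted p = 7.90e-17, in a comparison where 54.5% of genes were called. Type R cells went from 432 and 418 CPM to 1120.4 and 1105 CPM (1.39, SE 0.11, adjusted p = 1.48e-21, 46.4% called). Metaphyseal cells went from 52.4 and 55.1 CPM to 163 and 175 CPM (1.65, SE 0.099, adjusted p = 2.18e-16, 64.7% called). With 46.4% to 64.7% of genes called in these comparisons, a call alone sets Kitl apart from few genes. Kitl in haematopoietic-like cells, the measure of free RNA, was also higher, at 1.46 and 4.49 CPM in adult and 40.2 and 31.2 CPM in aged libraries, and its part in the rise was not tested. In erythroid cells Kitl was at 3.86 and 2.08 CPM in adult and 5.51 and 18.1 CPM in aged libraries.

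Cxcl12 in type R cells was at 1696 and 1619.6 CPM in adult and 3078 and 3433 CPM in aged libraries and rose (0.97, SE 0.099, adjusted p = 7.64e-15). In metaphyseal cells it rose from 153 and 139 CPM to 294 and 357 CPM (1.16, SE 0.10, adjusted p = 3.83e-12). The metaphyseal class joined a deeper and a shallower cluster with adult Cxcl12 at 80.3 and 379 CPM. The shallower one, with Gm10800 and Igha among its leading genes, held 614 of 1115 aged and 922 of 2155 adult cells. Within each cluster alone both genes rose in aged libraries, Cxcl12 by 0.90 in the deeper and 1.10 in the shallower, and Kitl by 1.40 and 1.76. In arterial cells it rose from 2078 and 1925 CPM to 2690 and 2421 CPM (0.35, SE 0.063, adjusted p = 1.61e-05). The ratio of Cxcl12 to Kitl UMIs was therefore lower in aged arterial cells, at 3.43 and 3.53, than in adult ones, at 6.88 and 7.15.

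How the aged cells were assigned bears on these values. When the libraries were clustered without integration, 1033 of 1115 aged metaphyseal cells and 326 of 1045 aged sinusoidal cells fell into arterial clusters, while 966 of 969 aged arterial cells stayed there. So did 499 of 742 aged unnamed cells. An arterial cluster of 2868 cells then drew 49.0% of its cells from a single library and had Gm10800 and Cd74 among its leading genes. The arterial class without integration thus held aged cells that integration had placed in several classes. Which of the 2 assignments is right was not tested. Cxcl12 in arterial cells was then lower in aged libraries (-0.57, adjusted p = 3.52e-11), Cxcl12 in metaphyseal cells lost its call (-0.14, adjusted p = 0.730) and Kitl in metaphyseal cells as well (0.55, adjusted p = 0.0571). A gate on class markers alone, which uses no clusters, kept the aged calls of both genes in arterial, type R and metaphyseal cells. It held 56.2%, 31.6% and 51.9% of the cells of these classes, and its own markers differed with age. Gja4 was at 1244 CPM in adult and 741 CPM in aged arterial cells, and Ramp3 at 423 and 185 CPM in metaphyseal cells. Timp4 in type R cells was higher in aged, at 1025 and 1797 CPM.

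Sinusoidal cells went the other way for Cxcl12, at 60.6 and 69.8 CPM in adult and 36.4 and 17.1 CPM in aged libraries (-1.27, SE 0.15, adjusted p = 5.78e-09, 66.1% of genes called). The aged libraries lay below the adult ones but were themselves far apart. Kitl there did not pass the test (0.17, SE 0.21, adjusted p = 0.488). By edgeR's test it was called higher without TMM factors (0.58, adjusted p = 0.0161) and lower without integration (-0.58, adjusted p = 0.0432). Both genes lay below the haematopoietic-like cells, which in aged libraries held Cxcl12 at 102 and 56.2 CPM and Kitl at 40.2 and 31.2 CPM. The part of free RNA in the sinusoidal difference was not tested.

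Aged endothelial cells also differed in genes of the lists. The transcription factors Ebf1, Ebf3 and Klf7 rose in type R cells (0.32, 1.20 and 1.08). Of 4 tested factors 3 rose in type R, 3 in arterial and 4 in metaphyseal cells, and 3 rose and 1 fell in sinusoidal cells, beside 46.4%, 54.5%, 64.7% and 66.1% of all genes called. Kit rose in metaphyseal cells (1.20, SE 0.11, adjusted p = 1.63e-11), and Cxcr4 fell in arterial cells (-0.96, SE 0.21, adjusted p = 2.78e-04). Of the other niche factors 2 rose and 5 fell of 11 in metaphyseal cells, and 2 rose and 3 fell of 9 in arterial cells, shares near the 64.7% and 54.5% of all genes called there. Tgfb1 fell in arterial, type R and metaphyseal cells (-0.72, -0.91 and -0.85), while the macrophage factor Csf1 rose in all 3 (0.60, 0.66 and 0.68). The neutrophil proteases Elane (-2.34) and Ctsg (-3.02) fell in metaphyseal cells, beside the lower free RNA of Elane noted above.

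**Figure D3:**
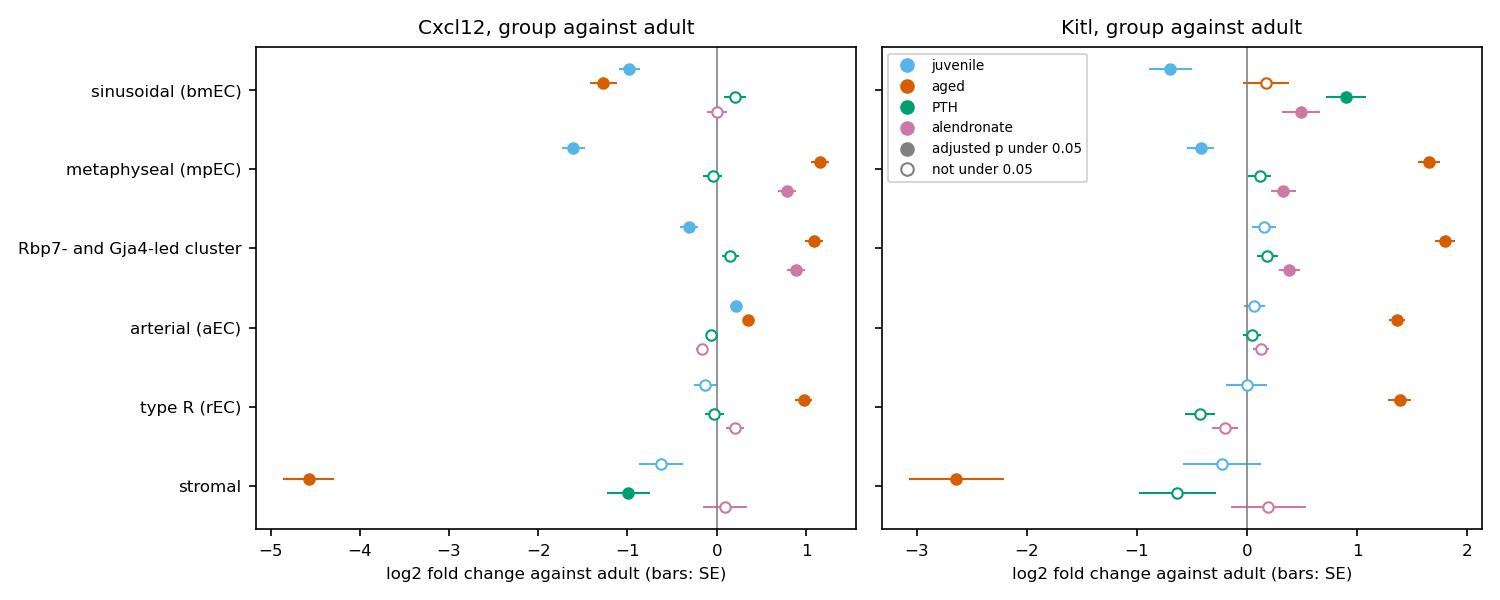
Log2 fold change against adult of Cxcl12 and Kitl by class and group, with bars for the SE on either side. Aged type R, arterial and metaphyseal cells lie above 0 for both genes, aged stromal-like cells far below it, and most treatment changes lie near 0.

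In juvenile mice, Cxcl12 fell in metaphyseal and sinusoidal cells, was higher in arterial cells and did not pass the test in type R cells. Metaphyseal cells held 51.5 and 44.5 CPM in juvenile against 153 and 139 CPM in adult libraries, a fall (-1.61, SE 0.13, adjusted p = 2.27e-12, 25% of genes called). Sinusoidal cells held 32.6 and 33.5 CPM and fell as well (-0.98, SE 0.12, adjusted p = 9.33e-08, 37.0% called). On the plain scale, juvenile metaphyseal cells were at 48.8 CPM against 15.0 CPM in the haematopoietic-like cells of library 1, and at 42.1 CPM against 286 CPM in the few of library 2. Arterial cells held 2273 and 2369.8 CPM, slightly above adult (0.21, SE 0.067, adjusted p = 0.0368, 9.94% called). That arterial call was lost when any one of the 4 juvenile and adult libraries was left out, at 0.15 to 0.26 on the log2 scale. Type R cells, only 88 in the juvenile libraries, held 1599 and 1418 CPM, below both adult libraries, and did not pass the test (-0.13, SE 0.13, adjusted p = 0.723, interval -0.38 to 0.13, 3.29% called).

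Kitl in juvenile mice passed the test in metaphyseal and sinusoidal cells, with changes under 2-fold. It was at 39.7 and 40.4 CPM in juvenile metaphyseal cells, below both adult libraries (-0.42, SE 0.12, adjusted p = 0.00757), but this call was lost in either of the metaphyseal clusters taken alone (-0.19 in the deeper and -0.34 in the shallower one). In sinusoidal cells it was at 4.09 and 4.27 CPM against 6.76 and 6.80 CPM (-0.70, SE 0.20, adjusted p = 0.00510). Neither arterial (0.068, SE 0.098, adjusted p = 0.750) nor type R cells (-0.0025, SE 0.19, adjusted p = 0.997) passed the test, and their juvenile libraries held 283 and 316 CPM and 373 and 491 CPM. The metaphyseal class had 2 clusters, of 5834 cells and of 4292 cells with fewer UMIs, of which the shallower held 422 of 1708 juvenile cells, and Cxcl12 fell in juvenile cells of each (-1.07 and -1.71).

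Other genes of the lists also changed in juvenile metaphyseal cells. Igf1 (3.61), the heparin-binding factor Ptn (3.62) and the protease gene Mmp2 (2.94) rose, while Cxcl16 (-2.10) and Flt3l (-1.05) fell. The CXCL12 receptors Cxcr4 (-1.06) and Ackr3 (-0.47) fell there too. Of the niche factors 3 rose and 3 fell of 11 tested in this class, with a list median of -0.02 against 0.01 over all genes and 25% of all genes called.

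Under parathyroid hormone, Cxcl12 did not pass the test in any of the 4 endothelial classes compared between groups (arterial, type R, metaphyseal and sinusoidal). Arterial cells held 1938 and 1900.5 CPM (-0.062, SE 0.063, adjusted p = 0.741, 5.05% of genes called), type R cells 1329.9 and 1799.6 CPM (-0.030, SE 0.11, adjusted p = 0.951, 3.21% called) and metaphyseal cells 113 and 160.2 CPM (-0.047, SE 0.10, adjusted p = 0.861, 13.2% called). The intervals of these differences were -0.19 to 0.063, -0.24 to 0.18 and -0.25 to 0.16 on the log2 scale. In metaphyseal cells the PTH libraries fell on either side of the adult ones, and without PTH replicate 2 the difference was -0.37 and passed the test (adjusted p = 0.0489). Sinusoidal cells held 82.6 and 71.0 CPM (0.21, SE 0.12, adjusted p = 0.357).

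Kitl passed the test under PTH in sinusoidal cells alone among these classes, at 11.7 and 13.2 CPM against 6.76 and 6.80 CPM in adult (0.90, SE 0.18, adjusted p = 7.17e-04, 9.25% of genes called). On the plain scale the PTH libraries stood at 11.2 and 12.6 CPM beside 17.0 and 8.35 CPM in haematopoietic-like cells. The call was lost without PTH replicate 2 (0.78, adjusted p = 0.145), and the difference from the other classes is given with the class interactions. Type R cells held 323 and 314 CPM, below both adult libraries, but did not pass (-0.43, SE 0.13, adjusted p = 0.0584, interval -0.69 to -0.16). It passed without juvenile replicate 2 (-0.43, adjusted p = 0.04996). Arterial (0.045, SE 0.078, adjusted p = 0.869) and metaphyseal cells (0.12, SE 0.11, adjusted p = 0.581) did not pass either, at 289 and 298 CPM and 50.9 and 62.2 CPM. The receptor gene Cxcr4 rose under PTH in arterial (1.16, SE 0.16, adjusted p = 9.24e-06), metaphyseal (0.57) and sinusoidal cells (1.44), and Ptn rose in metaphyseal cells (2.92, SE 0.29, adjusted p = 1.71e-09).

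Under alendronate, Cxcl12 rose in metaphyseal cells. They held 239 and 265 CPM against 153 and 139 CPM in adult libraries, without overlap (0.78, SE 0.10, adjusted p = 9.68e-07, 11.3% of genes called). The rise was called in the deeper and in the shallower metaphyseal cluster taken alone (0.88 and 0.78). Arterial cells, at 1882 and 1691 CPM, did not pass (-0.16, SE 0.063, adjusted p = 0.152, interval -0.29 to -0.041, 4.83% called), nor did type R cells at 1873 and 1944 CPM (0.20, SE 0.099, adjusted p = 0.361, interval 0.0080 to 0.40, 2.52% called). In sinusoidal cells the level was 63.1 and 67.4 CPM (0.0017, SE 0.11, adjusted p = 0.996, 17.9% called).

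Kitl in metaphyseal cells was at 70.8 and 64.1 CPM under alendronate (0.33, SE 0.11, adjusted p = 0.0460), and in sinusoidal cells at 9.97 and 9.10 CPM (0.49, SE 0.17, adjusted p = 0.0440). Both calls stood close to the threshold and were lost when any one of the adult or alendronate libraries was left out. Arterial cells held 309.6 and 314 CPM (0.13, SE 0.075, adjusted p = 0.440) and type R cells 365 and 376 CPM (-0.20, SE 0.11, adjusted p = 0.471). All 3 receptors rose in metaphyseal cells, where 11.3% of genes were called: Ackr3 (0.66, SE 0.12, adjusted p = 2.05e-04), Cxcr4 (0.55, SE 0.16, adjusted p = 0.0162) and Kit (0.36, SE 0.12, adjusted p = 0.0466). Ackr3 also rose in arterial (0.73, 4.83% of genes called) and sinusoidal cells (0.74, 17.9% called), and no receptor passed edgeR's test in type R cells (2.52% called), where 1 of 3 had an unadjusted p under 0.05, Cxcr4 at -0.86. Igf1 rose in metaphyseal cells by 1.65 and in sinusoidal cells by 0.69.

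Whether a group changed the classes alike was tested as an interaction, each class against sinusoidal cells, whose low levels were above those of haematopoietic-like cells in some libraries and below them in others. For age, the aged change of Cxcl12 was larger than the sinusoidal one in metaphyseal (2.35, SE 0.18, adjusted p = 8.33e-17, 11.2% of genes called), type R (2.06, SE 0.17, adjusted p = 4.02e-15, 9.21% called) and arterial cells (1.48, SE 0.17, adjusted p = 1.01e-10, 17.3% called). For Kitl it was larger in metaphyseal (1.41, SE 0.22, adjusted p = 1.06e-06), arterial (1.05, SE 0.21, adjusted p = 8.68e-05) and type R cells (1.03, SE 0.21, adjusted p = 3.23e-04). These aged differences were not recomputed without integration. In that setting the aged change of Cxcl12 within a class was -0.57 in arterial and -0.14 in metaphyseal cells. The juvenile change of Cxcl12 was lower than the sinusoidal one in metaphyseal cells (-0.62, SE 0.19, adjusted p = 0.0292, 7.33% called) and higher in arterial (1.20, SE 0.15, adjusted p = 3.33e-09, 4.35% called) and type R cells (0.77, SE 0.19, adjusted p = 0.0106, 2.23% called). The metaphyseal call was lost without adult replicate 1 or either juvenile library, and the type R call without adult replicate 2 or juvenile replicate 1. In that type R comparison the median of all genes was -0.18, so values there are read relative to it.

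Under PTH the difference from sinusoidal cells passed for Kitl in metaphyseal (-0.78, SE 0.20, adjusted p = 0.00761, 3.68% called), arterial (-0.86, SE 0.19, adjusted p = 0.00263, 1.51% called) and type R cells (-1.36, SE 0.20, adjusted p = 3.72e-06, 1.54% called). The metaphyseal call was lost without PTH replicate 2 or either adult library, and the arterial call without PTH replicate 2 or adult replicate 1. Sinusoidal cells were then compared with an adult level of 6.76 and 6.80 CPM. Under alendronate it passed for Cxcl12 in metaphyseal cells (0.79, SE 0.15, adjusted p = 0.00124, 0.630% called; lost without adult replicate 2, adjusted p = 0.259, or alendronate replicate 2, adjusted p = 0.0565) and not in arterial (-0.15, SE 0.13, adjusted p = 0.783, 1.36% called) or type R cells (0.23, SE 0.14, adjusted p = 0.679, 1.00% called). Juvenile Kitl passed in arterial cells alone (0.77, SE 0.21, adjusted p = 0.0169, lost without any one of its 4 libraries), with metaphyseal cells at 0.28, SE 0.22, adjusted p = 0.578 and type R cells at 0.62, SE 0.25, adjusted p = 0.283. With the gate on markers 8 of the 14 differences lost their call: all 4 of the juvenile group, the 3 of Kitl under PTH and that of Kitl in aged type R cells (0.69, adjusted p = 0.104).

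Among the comparisons with adult, the aged stromal-like cells showed the largest fitted change of either gene. Cxcl12 was at 7629 and 9919.8 CPM in adult and 247 and 493 CPM in aged stromal-like sums (-4.57, SE 0.29, adjusted p = 4.49e-08, 42.8% of genes called). Kitl went from 249.5 and 228 CPM to 27.8 and 48.4 CPM (-2.64, SE 0.43, adjusted p = 2.21e-04). No aged library overlapped any other group for either gene. The stromal class changed its make-up with the groups, however. It joined the Adipoq-led cluster of 263 cells (Lepr at 408 CPM, Cxcl14 at 521 CPM) and a cluster of 203 cells. The former also had the skeletal genes Ibsp, Mmp13, Spp1 and Col2a1 among its leading genes. The latter, led by Igfbp6 and Dcn and called Dcn-led here, held Dcn at 6579 CPM, Bglap at 6150 CPM and Col1a1 at 4339 CPM over the cells of all groups. Bglap in the Dcn-led cluster was at 19727 CPM in PTH, 104 CPM in adult, 1.91 CPM in aged and 0 CPM in alendronate cells. Col1a1 there ran from 398 CPM in aged to 9957 CPM in PTH cells. Of the aged stromal-like cells 2 of 89 were in the Adipoq-led cluster, against 111 of 125 adult, 59 of 59 juvenile, 45 of 109 PTH and 46 of 84 alendronate cells.

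The clusters themselves differed widely in both factors. The Adipoq-led cluster held Cxcl12 at 8969.9 CPM and Kitl at 268 CPM over all its cells, and the Dcn-led cluster 178 CPM and 21.1 CPM. Foxc1 and Ebf3, transcription factors known to maintain CXCL12-abundant reticular cells, were at 146 and 123 CPM in the Adipoq-led cluster and at 23.0 and 6.72 CPM in the other. Of the other listed factors, Ebf1 was at 388 and 245 CPM and Runx2 at 40.9 and 10.6 CPM in these clusters. Prrx1 went the other way, at 75.5 and 143 CPM. Within the Dcn-led cluster, aged libraries held Cxcl12 at 225 and 267 CPM and PTH libraries at 168 and 151 CPM. Alendronate libraries held 27.3 and 12.1 CPM from 3 UMIs, and adult libraries 0 and 121 CPM from 3 UMIs in 14 cells. The aged levels were the highest of the groups with cells in this cluster, where no test was run. The 2 aged cells of the Adipoq-led cluster carried 46 Cxcl12 UMIs, or 7234 CPM. A lower level per cell and a loss of Adipoq-led cells from the sort cannot be told apart by the class sum, and 2 cells allow no test within the cluster.

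**Figure D4:**
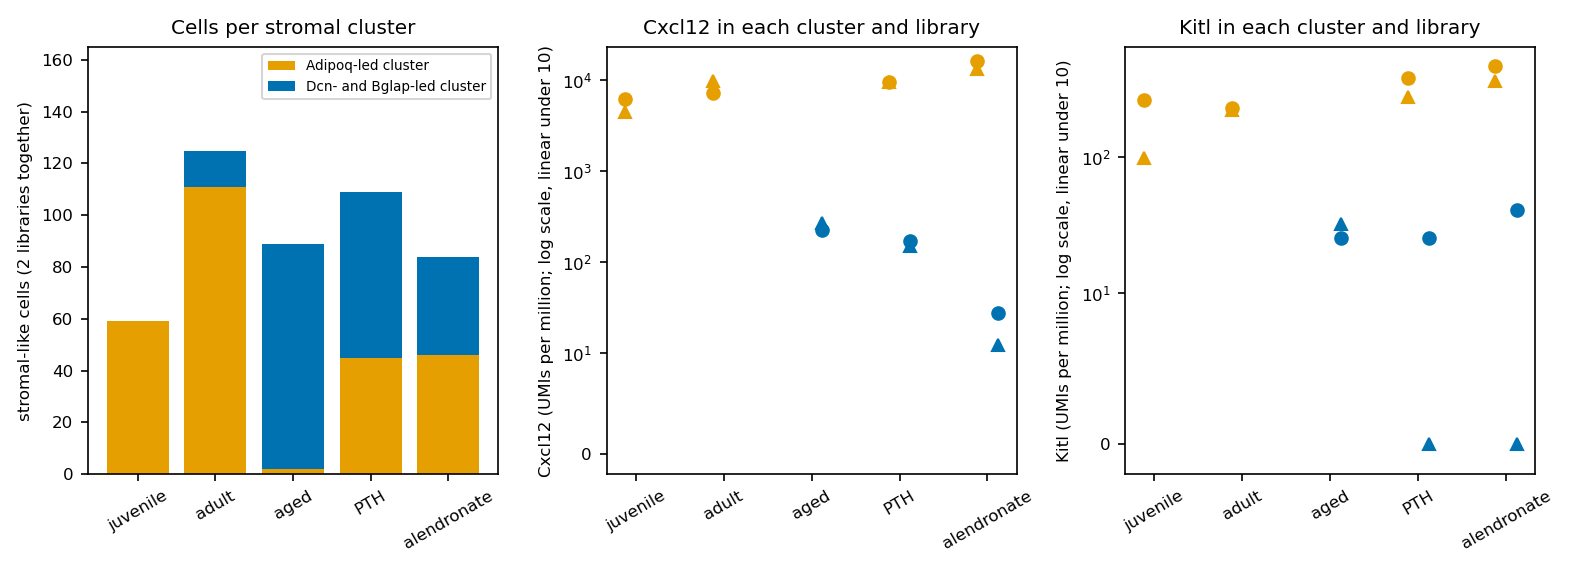
Left, number of stromal-like cells of each cluster by group. Middle and right, Cxcl12 and Kitl in the stromal-like clusters, in CPM (log axis) for each library with at least 10 cells of the cluster. Circles mark library 1 and triangles library 2. The Adipoq-led cluster lies far above the Dcn-led one for Cxcl12 in the groups with points for both. Juvenile libraries appear only in the Adipoq-led cluster and aged libraries only in the Dcn-led cluster.

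The other groups were compared in the whole class and within the Adipoq-led cluster. Under PTH, Cxcl12 in the class was at 4112 and 4716 CPM, below adult (-0.99, SE 0.24, adjusted p = 0.0193, 9.69% of genes called), a call lost without PTH replicate 1, PTH replicate 2 or adult replicate 2 (-0.89, -1.09 and -0.79). Within the Adipoq-led cluster it was at 9503 and 9555 CPM in PTH and 7252 and 9684 CPM in adult libraries, and the difference reversed its sign (0.13, SE 0.20, adjusted p = 0.933, 0.00% called). The cells compared there were not alike in other genes, as Col1a1 was at 4690 CPM in PTH and 57.9 CPM in adult cells of that cluster. Alendronate libraries held 10481 and 8226 CPM in the class (0.092, SE 0.24, adjusted p = 0.899, 4.86% called) and 16161 and 13407 CPM in the Adipoq-led cluster, above both adult libraries without passing the test (0.77, SE 0.16, adjusted p = 0.0933, 0.383% called). Juvenile libraries held 6603 and 4788 CPM in the class (-0.62, SE 0.24, adjusted p = 0.262, 1.90% called) and 6142 and 4455 CPM in the cluster (-0.72, SE 0.17, adjusted p = 0.0539, 1.99% called).

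Kitl in stromal-like cells did not pass the test in juvenile (283 and 106 CPM; -0.23, SE 0.36, adjusted p = 0.830), PTH (179 and 134 CPM; -0.63, SE 0.35, adjusted p = 0.332) or alendronate libraries (324 and 223 CPM; 0.19, SE 0.34, adjusted p = 0.842). A library held 23 to 71 stromal-like cells, and the size of change that could be seen at this depth was not tested. Among the listed genes, Cxcl14 and Ebf3 were lower in the aged stromal class (-9.89 and -3.34) and Ackr3 and Cxcr4 higher (3.37 and 4.97), in the direction of the Dcn-led cluster, where Ackr3 was at 372 CPM against 4.82 CPM in the Adipoq-led one.

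Much of both factors lay in 1 cluster that matched no class and that was singled out after its values were seen. Its 3564 cells were led by Rbp7 and held markers of metaphyseal and arterial cells together, among them Gja4. Adult libraries held Cxcl12 at 1018 and 871 CPM and Kitl at 196 and 181 CPM in it, between the metaphyseal and the arterial levels for both genes. Aged libraries held Cxcl12 at 2072 and 2236 CPM and Kitl at 666 and 736 CPM, and both rose (Cxcl12 1.09, SE 0.098, adjusted p = 3.16e-11; Kitl 1.80, SE 0.090, adjusted p = 1.19e-17, 51.1% of genes called). Of all aged unnamed cells, 499 of 742 fell into arterial clusters without integration, and these rises were not recomputed that way. Alendronate libraries held Cxcl12 at 1854 and 1594 CPM and Kitl at 254 and 232 CPM, again higher than adult (Cxcl12 0.89, SE 0.098, adjusted p = 1.30e-07; Kitl 0.38, SE 0.095, adjusted p = 0.0117, 5.02% called). Under PTH neither passed (Cxcl12 0.15, SE 0.099, adjusted p = 0.449; Kitl 0.19, SE 0.096, adjusted p = 0.306, 6.86% called). Juvenile libraries were lower in Cxcl12, at 785 and 709 CPM (-0.31, SE 0.11, adjusted p = 0.0483), and Kitl did not pass (0.16, SE 0.11, adjusted p = 0.412, 12.3% called).

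Per cell, Cxcl12 was found in most arterial and type R cells and in few sinusoidal ones. To compare cells of unequal depth, each cell was thinned to 1000 UMIs and shallower cells were left out, 220 of 5234 in the arterial and 333 of 3051 in the type R class. Over the 10 libraries of all groups a Cxcl12 UMI was then seen in 70.0% ± 3.51 of arterial cells (SD, n = 10), 67.1% ± 11.6 of type R, 49.2% ± 23.9 of stromal-like, 12.8% ± 7.34 of metaphyseal and 4.58% ± 2.02 of sinusoidal cells. Haematopoietic-like cells gave 4.68% ± 2.31, but the order of the 2 classes differed between groups. The sinusoidal share was above theirs in adult (5.54% ± 1.07 against 3.41% ± 0.531, SD, n = 2) and alendronate libraries (5.73% ± 0.0278 against 4.15% ± 0.274) and below it in aged (1.83% ± 0.109 against 5.28% ± 0.676) libraries, with the PTH (6.87% ± 0.372 against 7.45% ± 1.77) and juvenile libraries (2.94% ± 0.385 against 3.13% ± 4.42) within the spread. Without thinning the shares were 86.9% in arterial, 82.1% in type R and 14.7% in sinusoidal cells, against 17.6% in haematopoietic-like cells. Median depths before thinning were 3179, 2077, 3757 and 5228 UMIs in these 4 classes.

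Kitl was seen in 36.5% ± 14.8 of type R, 30.2% ± 9.47 of arterial, 11.3% ± 7.02 of stromal-like, 8.25% ± 6.04 of metaphyseal and 0.793% ± 0.357 of sinusoidal cells, against 1.46% ± 1.09 of haematopoietic-like cells. In the arterial, type R and metaphyseal classes the aged libraries held the highest shares. The aged stromal-like share was the lowest of the groups, at 2.27% against 14.2% in adult, and the aged sinusoidal share of 1.06% lay below that of 1.21% in PTH libraries. In aged libraries 47.6% ± 1.10 of arterial, 62.5% ± 1.75 of type R and 19.5% ± 0.720 of metaphyseal cells held a Kitl UMI (SD, n = 2), and in adult libraries 22.1% ± 1.24, 32.4% ± 0.287 and 5.33% ± 0.208. The aged libraries therefore lay above the adult ones in the share of cells with Kitl at equal depth, as they did in its level. For Cxcl12 the aged shares were 72.2% ± 2.51 of arterial, 81.3% ± 1.68 of type R and 24.4% ± 1.32 of metaphyseal cells, beside 71.2% ± 0.983, 72% ± 4.55 and 11.7% ± 0.529 in adult libraries.

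**Figure D5:**
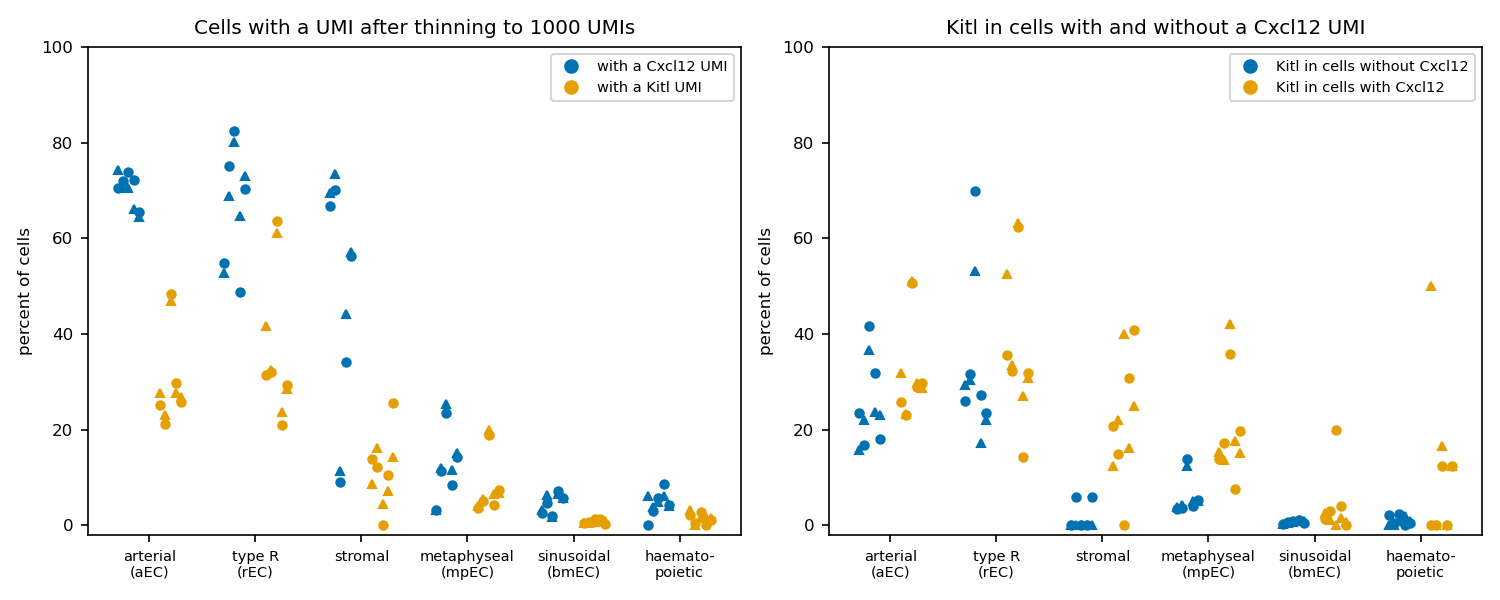
Left, share of cells with a Cxcl12 UMI and with a Kitl UMI, at 1000 UMIs per cell, by class and library (percent). Right, share with a Kitl UMI among cells with and among cells without a Cxcl12 UMI. Groups run juvenile, adult, aged, PTH and alendronate from left to right within a class, with circles for library 1 and triangles for library 2. Kitl shares are highest in the aged libraries of the arterial, type R and metaphyseal classes.

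Both factors were seen in the same cell more often than their separate shares would give by multiplication in some classes, a description with no test. In arterial cells 22.7% held both at 1000 UMIs, where independent detection would give 21.2%, and the odds ratio of co-detection had a median of 1.40 over libraries (0.860 to 2.35, above 1 in 9 of 10). Type R cells were alike, with 26.6% against 25.4% and a median odds ratio of 1.51 (0.480 to 2.51, above 1 in 8 of 10). Metaphyseal cells held both in 3.15% against 1.42% expected, with a median odds ratio of 4.20 (2.16 to 5.55, above 1 in 10 of 10). That class joins clusters at different levels of both genes, whose part in the ratio was not tested. In stromal-like cells, which also join unlike clusters, 50 of the 52 cells with Kitl also held Cxcl12, with a median odds ratio of 9.89 (2.07 to 56.4). Sinusoidal cells held both in 16 of 18789 cells, too few to describe. A small constant was added to each count before the ratio, which can lift it above 1 where few cells hold either gene. Haematopoietic-like cells, the measure of free RNA, gave a median of 18.5 from only 5 cells with both, and erythroid cells 19.8 from 1. Neither ratio can be read, and the stromal-like ratio shares this limit. Without thinning the haematopoietic-like median was 6.65 from 52 cells with both, beside 2.80 in metaphyseal cells. Cell depth is unequal there, and its part was not tested. Whether co-detection above independence was particular to the classes with high levels was therefore not settled.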

How the data were processed

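The 10 tables hold UMI counts per gene and cell for 2 libraries of each of 5 groups of sorted bone endothelial cells. The deposited counts were made by the authors with UMI-tools 1.1.2, STAR 2.7.10a on mm10 and featureCounts 2.0.3, and were not normalized. The annotation release and strand setting are not given in the sources used here.

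Cells with 500 to 6000 genes and under 25% mitochondrial UMIs were integrated in Seurat 5.3.0 with the 2 adult libraries as reference (2000 features without Cxcl12, Kitl, listed and cell-cycle genes, 30 principal components, resolution 0.5). Clusters were called X-like from listed markers. Doublets were removed only as an alternative, with Scrublet in scanpy 1.11.5. Counts were summed over the cells of a class in 1 library (20 cells or more) and tested with edgeR 4.0.16 (quasi-likelihood, TMM, Benjamini-Hochberg) in R 4.3.3. CPM values in class and group comparisons use the scaling of their own fit. Standard errors are approximate, taken from the F statistic, and intervals are 1.96 SE wide on either side. An exact permutation test of 2 against 2 libraries cannot go below p = 0.333. DESeq2 1.42.0, other filters, scalings and clusterings, a marker gate, and leaving out each library were alternatives, and the tests were tested on simulated data. Tables and figures were made in Python 3.11.15. The genes described are Cxcl12 and Kitl, the listed genes and the 5 genes most like each. These members and lists were chosen with earlier results of these data known. Samples were grouped by their labels. The 2017 gene names with UMIs in the aged libraries alone, 1.54% and 1.55% of aged UMIs, were left out.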

Additional observations from a re-analysis of the deposited data

Results flagged for a closer look

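In 14 results the change of a gene against adult differed between an endothelial class and sinusoidal cells by edgeR's test of the interaction. The reference in all of them is the sinusoidal class, whose Cxcl12 and Kitl levels were above those of haematopoietic-like cells in 6 and 5 of 10 libraries, and the part of free RNA in the differences was not tested. None of the 14 was recomputed without integration or at another clustering resolution.

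In aged libraries the difference of Cxcl12 was 2.35 (SE 0.18, adjusted p = 8.33e-17) in metaphyseal, 2.06 (SE 0.17, adjusted p = 4.02e-15) in type R and 1.48 (SE 0.17, adjusted p = 1.01e-10) in arterial cells. For Kitl it was 1.41 (SE 0.22, adjusted p = 1.06e-06) in metaphyseal, 1.05 (SE 0.21, adjusted p = 8.68e-05) in arterial and 1.03 (SE 0.21, adjusted p = 3.23e-04) in type R cells. In juvenile libraries the difference of Cxcl12 was -0.62 (SE 0.19, adjusted p = 0.0292) in metaphyseal, 1.20 (SE 0.15, adjusted p = 3.33e-09) in arterial and 0.77 (SE 0.19, adjusted p = 0.0106) in type R cells, and that of Kitl 0.77 (SE 0.21, adjusted p = 0.0169) in arterial cells. Under PTH the difference of Kitl was -0.78 (SE 0.20, adjusted p = 0.00761) in metaphyseal, -0.86 (SE 0.19, adjusted p = 0.00263) in arterial and -1.36 (SE 0.20, adjusted p = 3.72e-06) in type R cells. Under alendronate that of Cxcl12 was 0.79 (SE 0.15, adjusted p = 0.00124) in metaphyseal cells. Of these, 6 lost their call when 1 library was left out: Cxcl12 in alendronate metaphyseal, juvenile metaphyseal and juvenile type R cells and Kitl in juvenile arterial, PTH metaphyseal and PTH arterial cells. The gate on markers also ended the call of 3 others, Cxcl12 in juvenile arterial (0.74, adjusted p = 0.0643) and Kitl in PTH type R (-0.86, adjusted p = 0.634) and aged type R cells (0.69, adjusted p = 0.104).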

How the results depend on the processing

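Of 685 recomputed values other than those that leave out 1 library, 615 kept their direction and their side of the threshold, or stayed within the spread between libraries, and 5 reversed. The cause was not tested in any of them beyond what the alternative itself changes. Without integration, which moves aged metaphyseal cells into arterial clusters, the aged change reversed for Cxcl12 in arterial (-0.57) and metaphyseal cells (-0.14) and for Kitl in sinusoidal cells (-0.58), and the juvenile change for Kitl in metaphyseal cells (0.19). In that setting the reversed changes of Cxcl12 in arterial and of Kitl in sinusoidal cells passed the test. Calls were lost there for Cxcl12 in metaphyseal against other endothelial cells (-0.51) and for Kitl in aged metaphyseal (0.55), alendronate metaphyseal (0.20) and alendronate sinusoidal cells (0.40). Resolution 0.3 lost the metaphyseal class call of Cxcl12 (-0.59), Cxcl12 in juvenile arterial cells (0.034) and Kitl in alendronate sinusoidal cells (0.50), and resolution 0.8 the first of these (-0.14) and Cxcl12 in juvenile arterial cells (0.060).

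DESeq2 lost Kitl in juvenile sinusoidal (-0.69), alendronate sinusoidal (0.50), juvenile metaphyseal (-0.41) and alendronate metaphyseal cells (0.34) and Cxcl12 in juvenile arterial cells (0.23), and gained Kitl in stromal-like against endothelial cells (1.11). The gate on markers lost Kitl in juvenile (-0.48), PTH (0.53) and alendronate sinusoidal cells (0.47) and in juvenile metaphyseal cells (-0.019), and Cxcl12 in juvenile arterial cells (0.14). It also lost 8 differences from sinusoidal cells: Cxcl12 in juvenile metaphyseal (-0.55), arterial (0.74) and type R cells (0.80), and Kitl in PTH metaphyseal (-0.65), arterial (-0.55) and type R (-0.86), juvenile arterial (0.59) and aged type R cells (0.69). Without TMM factors Kitl in aged sinusoidal cells gained a call (0.58) and Kitl lost it in alendronate sinusoidal (0.46) and metaphyseal cells (0.30). Without a filter on low counts these last calls were lost (0.48 and 0.33), as was Kitl in juvenile arterial minus sinusoidal cells (0.71), and Cxcl12 in juvenile stromal-like cells was gained (-0.65). Removing doublets lost Kitl under alendronate in sinusoidal (0.44) and metaphyseal cells (0.33).

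Libraries with the same number did not deviate together, with 40 correlations from -0.05 to 0.06 and 0 over 0.1. The replicate block changed 1 call of 40, that of Kitl in alendronate metaphyseal cells (0.33). Alternatives chosen after seeing the data were the separate clusters and the sums without the aged libraries. Kitl in stromal-like against endothelial cells passed 2-fold with the Adipoq-led cluster alone (1.84) and without the aged libraries (1.43). Cxcl12 in PTH stromal-like cells reversed in the Adipoq-led cluster (0.13). Kitl in juvenile metaphyseal cells lost its call in the deeper (-0.19) and shallower cluster (-0.34), and Kitl under alendronate in the shallower one (0.23).

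Leaving out 1 library at a time kept 797 of 840 results. The calls that changed, with the range of their log2 values, were Kitl in stromal-like against endothelial cells (0.71 to 1.12), Cxcl12 in juvenile arterial (0.15 to 0.26), PTH metaphyseal (-0.37 to 0.13) and PTH stromal-like cells (-1.17 to -0.79), and Kitl in PTH sinusoidal (0.78 to 0.95), alendronate sinusoidal (0.42 to 0.56), juvenile metaphyseal (-0.46 to -0.39), alendronate metaphyseal (0.25 to 0.40) and PTH type R cells (-0.45 to -0.39). Kitl in juvenile metaphyseal cells was lost without adult replicate 2 (-0.39) or juvenile replicate 1 (-0.41). Among differences from sinusoidal cells they were Cxcl12 in alendronate metaphyseal (0.62 to 0.96; lost without adult replicate 2 or alendronate replicate 2), juvenile metaphyseal (-0.80 to -0.45; without adult replicate 1 or either juvenile library) and juvenile type R cells (0.66 to 0.93; without adult replicate 2 or juvenile replicate 1). For Kitl they were PTH arterial (-0.91 to -0.79; without PTH replicate 2 or adult replicate 1) and metaphyseal (-0.86 to -0.75; without PTH replicate 2 or either adult library), juvenile arterial (0.72 to 0.83; without any of its 4 libraries) and alendronate type R cells (-0.75 to -0.58; gained without either aged library).

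Shares of cells with a UMI moved with the depth they were read at. At 2000 UMIs per cell the shares with Cxcl12 were 84.1% in arterial, 80.8% in type R and 8.27% in sinusoidal cells, and those with Kitl 48.5% in arterial, 52.1% in type R, 19.1% in stromal-like and 1.46% in sinusoidal cells, and the odds ratio in type R cells was 2.09. Without thinning Cxcl12 was seen in 86.9% of arterial, 82.1% of type R, 24.0% of metaphyseal and 14.7% of sinusoidal cells, and Kitl in 61.7% of arterial, 60.9% of type R, 20.2% of metaphyseal, 28.4% of stromal-like and 3.15% of sinusoidal cells, with odds ratios of 2.80 in metaphyseal and 2.99 in arterial cells. The gate on markers gave an odds ratio of 2.97 in metaphyseal cells and shares of 24.8% with Cxcl12 and 19.0% with Kitl in the cells it called stromal. Of 260 cells so gated, 119 were stromal-like in the main classes. Small classes limit the depth: a library held 23 to 71 stromal-like cells, and the aged pEC-like sums of 19 and 15 cells were not used.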

Other observations

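A further unnamed cluster of 1646 cells, singled out after its values were seen and led by the lymphatic chemokine gene Ccl21a and by Tagln, Vwf and Fmo2, with the type R marker C1qtnf9 among its 10 leading genes, also held both genes. Cxcl12 was at 91.0 and 49.9 CPM in juvenile, 364 and 470.4 CPM in adult, 547 and 557 CPM in aged, 266 and 326 CPM in PTH and 353 and 368 CPM in alendronate libraries. Kitl was at 56.9 and 116 CPM in juvenile, 115 and 158 CPM in adult, 379 and 441 CPM in aged, 150.4 and 155 CPM in PTH and 174 and 159.6 CPM in alendronate libraries. The aged values were the highest for each gene, but by edgeR's quasi-likelihood test against adult Cxcl12 did not pass (0.31, SE 0.14, adjusted p = 0.0790), while Kitl rose (1.501, SE 0.17, adjusted p = 4.72e-08, 33.2% of genes called). Cxcl12 fell in juvenile libraries (-2.73, SE 0.31, adjusted p = 5.48e-07, 1.88% called), and no other change passed. The juvenile values rest on 54 cells with 14 UMIs of Cxcl12 and 19 of Kitl.

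The mural-like cells, 53 in 8 libraries, held Cxcl12 at 159 to 911 CPM and Kitl at 79.3 to 453 CPM, in sums too small to compare.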
